A study of Homo sapiens with 24 samples.

Results

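The 10 genes described here, TFAM, TFB2M, POLRMT, TEFM, LRPPRC, SLIRP, MTPAP, PNPT1, SUPV3L1 and PPARGC1A, act in mitochondrial transcription and in the stability of mitochondrial RNA. They were taken by name from both expression tables of the series, and all 10 were found among the 58884 genes that each table lists. RNA-seq was performed on HEK293T, a human embryonic kidney cell line, to ask how transcript levels differ when the histone methyltransferase SETD2 is lost or re-expressed. Batch 1 held 2 libraries of WT cells and 2 of KO cells, all labelled untreated. KO is a line in which both SETD2 alleles had been disrupted. Batch 2 held 2 libraries of KO cells, 2 of KO cells given the full-length protein (SETD2 FL) and 2 of KO cells given its C-terminal segment from residue 1404 to residue 2564 (SETD2 C). The constructs carried a GFP or Halo tag, were driven by a CMV promoter and were introduced by transient transfection, with RNA isolated 72 h later. KO libraries of batch 2 carry the label untreated, so transfection and construct cannot be told apart in a comparison with KO. SETD2 FL and SETD2 C were both transfected, but the construct and its level cannot be told apart between them.

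Mitochondrial DNA is transcribed by a dedicated RNA polymerase, POLRMT, which initiates with the DNA-packaging factor TFAM and the promoter-melting factor TFB2M and elongates with TEFM. The long transcripts are cut into mRNAs, rRNAs and tRNAs, and the mRNAs are bound by the LRPPRC and SLIRP complex, given poly(A) tails by MTPAP and degraded by the PNPT1 exoribonuclease together with the SUPV3L1 helicase. All of these proteins are encoded in the nucleus, and PPARGC1A is a transcriptional coactivator known for promoting mitochondrial biogenesis.

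Values are TPM, a transcript abundance corrected for transcript length and expressed relative to the whole library. Since TPM keeps no depth, the number of reads behind each value is unknown. Fold changes and tests refer to log2(scaled TPM + 0.5), where TPM was first divided by a median-ratio factor for the library, and a gene passed at an adjusted p of at most 0.05 from limma (Benjamini-Hochberg over all genes tested). This scale understates changes of genes with low TPM. The 2 batches were deposited as separate tables and were never joined. The labels of these libraries do not say whether replicates came from separate cultures, so p-values measure only the spread between these libraries, which may be technical. In bulk RNA, a change in all cells and a larger change in the transfected cells alone cannot be told apart.

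SETD2 itself was read first as a check of the labels. In batch 1 its TPM was 12.6 and 14.8 in the WT libraries and 16.2 and 16.3 in the libraries labelled KO. Libraries labelled KO thus had no lower SETD2 transcript level than WT, and directions between WT and KO given here rest on the labels. A disrupted allele can still be transcribed, so this level does not test the protein. Batch 2 libraries labelled KO had 11.99 and 12.15 TPM of SETD2, those with SETD2 FL had 439 and 422, and those with SETD2 C had 1329 and 1264. The 6 markers of the cell line were all present in both tables, from PAX2 at 0.99 to 2.21 TPM up to VIM at 444 to 926. Of the neurofilament genes, NEFM was at 125 and 120 TPM in KO, 111 and 126 with SETD2 FL, while SETD2 C gave 289 and 341. KRT8, a keratin, was at 28.2 and 29.3 TPM in KO, 31.9 and 32.9 with SETD2 FL, while SETD2 C gave 98.1 and 97.9. The other 4 markers were likewise highest in both SETD2 C libraries of batch 2. NEFL was at 156 and 168 TPM there and at most 63.6 in the other libraries of batch 2, and VIM at 909 and 926 and at most 801. KRT18 was at 97.2 and 95.7 TPM with SETD2 C and at most 80.6 in the others of batch 2, and PAX2 at 1.80 and 1.64 and at most 1.44. The part of these differences in the results on the 10 genes was not tested. Of the genes of other cell types, PTPRC and CDH5 did not exceed 0.03 TPM and ALB did not exceed 0.38, while HBA1 was at 0 and 0.86 TPM in KO and at 2.34 and 2.71 with SETD2 C.

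SLIRP was the most abundant of the 10 in every library, with a median of 338 TPM in batch 1 and 441 in batch 2. LRPPRC, POLRMT, TFAM, SUPV3L1 and PNPT1 followed with medians between 27.7 and 74.9 TPM. Within that middle group the order was not fixed in batch 1, where TFAM exceeded SUPV3L1 in 2 of 4 libraries and POLRMT exceeded PNPT1 in 2 of 4. In batch 2, POLRMT exceeded LRPPRC in 5 of 6 libraries, and every later neighbour pair kept its order in 6 of 6. TEFM and MTPAP had medians between 10.6 and 16.7 TPM, TFB2M about 5.04 in batch 1 and 4.84 in batch 2, and PPARGC1A ranged from 1.06 to 1.63 TPM in batch 1 and from 0.78 to 1.51 in batch 2. POLRMT was the fifth by mean TPM in batch 1 and the second in batch 2. All 10 passed the filter on low values in both tables.

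**Figure D1:**
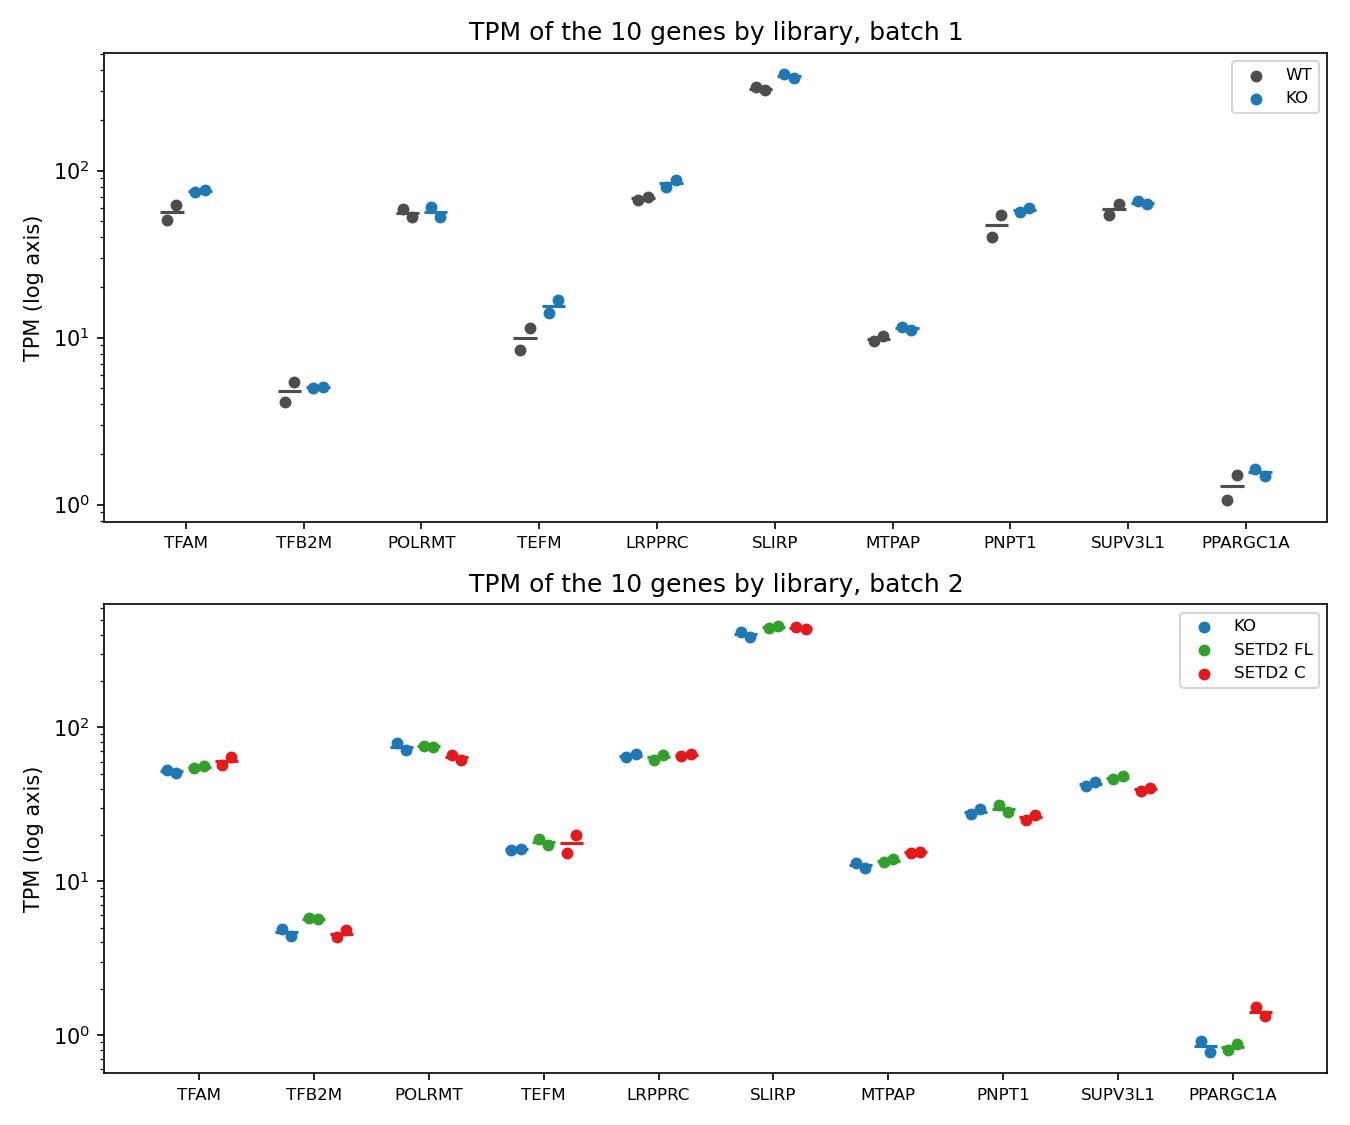
TPM (log axis) of each gene in every library of batch 1 (WT and KO) and batch 2 (KO, SETD2 FL and SETD2 C); each point is 1 library and each bar the mean of the 2 libraries of a group. SLIRP lies above the other genes in both batches, up to 459 TPM, and PPARGC1A lies below them, at most 1.63 TPM.

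In cells given SETD2 C, the transcripts of the mitochondrial RNA polymerase and of both decay enzymes were lower than in the libraries labelled KO. POLRMT was at 0.771 times its KO level, SUPV3L1 at 0.836 times and PNPT1 at 0.831 times. Of the 10 genes these 3 were lower and 0 were higher, where 15.1% of all 15929 genes tested were lower and 21.1% were higher. No member reached a 2-fold change, which 4.06% of all genes did while passing the test. Without scaling of TPM the count became 1 lower (POLRMT) and 3 higher (TFAM, MTPAP and PPARGC1A), and under quantile normalization 4 lower (TFB2M added) and 0 higher. All 15929 genes gave 1115 lower and 5507 higher without scaling, and 2786 and 2456 under quantile normalization. Of the 10 genes, 4 had an unadjusted p under 0.05 with scaling, beside 47.1% of all genes. Taken over all genes, the median was 0.05 with scaling, 0.18 without it and -0.025 under quantile normalization (log2). A library factor cancels when this median is subtracted, so values relative to it are given with scaling and under quantile normalization. Relative to that median, POLRMT stood at -0.42 with scaling and -0.32 under quantile normalization. PNPT1 stood at -0.31 and -0.23, and SUPV3L1 at -0.31 and -0.20. The median log2 fold change of the 10 members, without that subtraction, was -0.08 with scaling, 0.068 without scaling and -0.074 under quantile normalization.

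POLRMT (ENSG00000099821, GRCh38 chromosome 19 from 617221 to 633537, minus strand, 21 exons in its GENCODE 44 reference transcript) was measured at 79.1 and 70.9 TPM in KO, at 76.3 and 74.3 after SETD2 FL, and at 66.4 and 61.4 after SETD2 C. Both SETD2 C libraries thus lay below all 4 others. The log2 fold change of SETD2 C against KO was -0.38 (standard error, SE, 0.07; adjusted p = 0.00613, limma, Benjamini-Hochberg), and that against SETD2 FL was -0.36 (SE 0.07, adjusted p = 0.0064). Over the 6 fits that each omitted 1 library, the limma adjusted p (Benjamini-Hochberg) ranged from 0.00847 to 0.0445 against KO and from 0.00598 to 0.0461 against SETD2 FL.

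The polymerase initiates with TFAM and TFB2M. TFAM (ENSG00000108064, chromosome 10 from 58385345 to 58399220, plus strand, 7 exons) had a TPM of 52.8 and 50.9 in KO, 54.7 and 55.8 with SETD2 FL, while SETD2 C gave 56.9 and 64.0. After scaling, the SETD2 C values were 53.5 and 59.9 and overlapped both other groups. Its log2 fold change against KO was 0.07 (95% interval -0.08 to 0.22), and did not pass with scaling (adjusted p = 0.431, limma, Benjamini-Hochberg). Without scaling it was 0.22 with a limma adjusted p of 0.0373 (Benjamini-Hochberg), against a median of all genes of 0.18. The ratio of POLRMT to TFAM within a library does not depend on scaling. It was 1.498 and 1.393 in KO, 1.40 and 1.33 with SETD2 FL, while SETD2 C gave 1.17 and 0.959. Its SETD2 C values lay below the other 4. The ratio of POLRMT to TFB2M was 16.2 and 16.1 in KO, 13.3 and 13.1 with SETD2 FL, while SETD2 C gave 15.3 and 12.8, so it did not set SETD2 C apart. Both ratios were described without a test.

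TFB2M (ENSG00000162851, chromosome 1 from 246540561 to 246566261, minus strand, 8 exons) had a TPM of 4.89 and 4.41 in KO, 5.73 and 5.66 with SETD2 FL, while SETD2 C gave 4.33 and 4.79. The SETD2 FL libraries were the highest, and SETD2 C and KO overlapped in TPM. SETD2 C was lower than SETD2 FL by a log2 fold change that stood at -0.41 (SE 0.10, adjusted p = 0.0163, limma, Benjamini-Hochberg). Without scaling this call was lost (adjusted p = 0.0544, limma, Benjamini-Hochberg). It was also lost without SETD2 FL replicate 3 (adjusted p = 0.0792, limma, Benjamini-Hochberg) or without SETD2 C replicate 1 (adjusted p = 0.0784). Against KO its log2 fold change was -0.16 (95% interval -0.40 to 0.08) and did not pass. Under quantile normalization it was -0.33 and passed (adjusted p = 0.043, limma, Benjamini-Hochberg). The elongation factor TEFM (ENSG00000172171, chromosome 17 from 30897336 to 30906238, minus strand, 4 exons) spread widely with SETD2 C, at 15.3 and 19.9 TPM. KO stood at 16.1 and 16.2 and SETD2 FL at 18.9 and 17.2, both within the SETD2 C range. A lncRNA on the opposite strand overlaps TEFM and lay between 5.69 and 10.7 TPM in batch 2; use of strand in the counting is not given in the sources used here, so reads of the pair may not be separable.

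Both decay enzymes were lowest with SETD2 C. SUPV3L1 (ENSG00000156502, chromosome 10 from 69180234 to 69209099, plus strand, 15 exons) had a TPM of 41.4 and 44.3 in KO, 46.1 and 48.4 with SETD2 FL, while SETD2 C gave 38.6 and 40.5. No 2 of these 3 groups overlapped. Its log2 fold change with SETD2 C was -0.26 against KO (SE 0.06, adjusted p = 0.0141, limma, Benjamini-Hochberg) and -0.38 against SETD2 FL (SE 0.06, adjusted p = 0.00266). The call against KO was lost without KO replicate 4 (adjusted p = 0.0823, limma, Benjamini-Hochberg), without SETD2 C replicate 1 (adjusted p = 0.0759) and without scaling (adjusted p = 0.219). The call against SETD2 FL held with each library left out, with a limma adjusted p (Benjamini-Hochberg) of at most 0.0182.

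PNPT1 (ENSG00000138035, chromosome 2 from 55634061 to 55693863, minus strand, 28 exons) had a TPM of 27.3 and 29.3 in KO, 31.1 and 28.2 with SETD2 FL, while SETD2 C gave 25.1 and 26.8. KO and SETD2 FL overlapped, and SETD2 C lay below both. Its log2 fold change with SETD2 C was -0.27 against KO (SE 0.08, adjusted p = 0.0387, limma, Benjamini-Hochberg) and -0.31 against SETD2 FL (SE 0.08, adjusted p = 0.0213). The call against KO was lost when any of the 4 libraries compared was left out, with a limma adjusted p (Benjamini-Hochberg) of 0.0567 without KO replicate 2, 0.172 without KO replicate 4, 0.16 without SETD2 C replicate 1 and 0.0817 without SETD2 C replicate 2. Against SETD2 FL it was lost without SETD2 FL replicate 3 (adjusted p = 0.118, limma, Benjamini-Hochberg), without SETD2 C replicate 1 (adjusted p = 0.0988) and without SETD2 C replicate 2 (adjusted p = 0.0527). Among the other settings, the PNPT1 call passed in 7 of 11 against KO and in 8 of 11 against SETD2 FL. Both calls were lost without scaling (adjusted p = 0.246 and 0.0893, limma, Benjamini-Hochberg), with no filter on low TPM (0.0857 and 0.0585) and with eBayes without trend (0.0855 and 0.0562). That against KO was also lost over all gene types (adjusted p = 0.0551, limma, Benjamini-Hochberg). The ratio of PNPT1 to SUPV3L1 was 0.660 and 0.662 in KO, 0.674 and 0.582 with SETD2 FL, while SETD2 C gave 0.651 and 0.663. Processed copies of these genes were near 0, with at most 0.25 TPM for POLRMTP1, 0.24 for PNPT1P1 and 0.16 for TFAMP1.

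**Figure D2:**
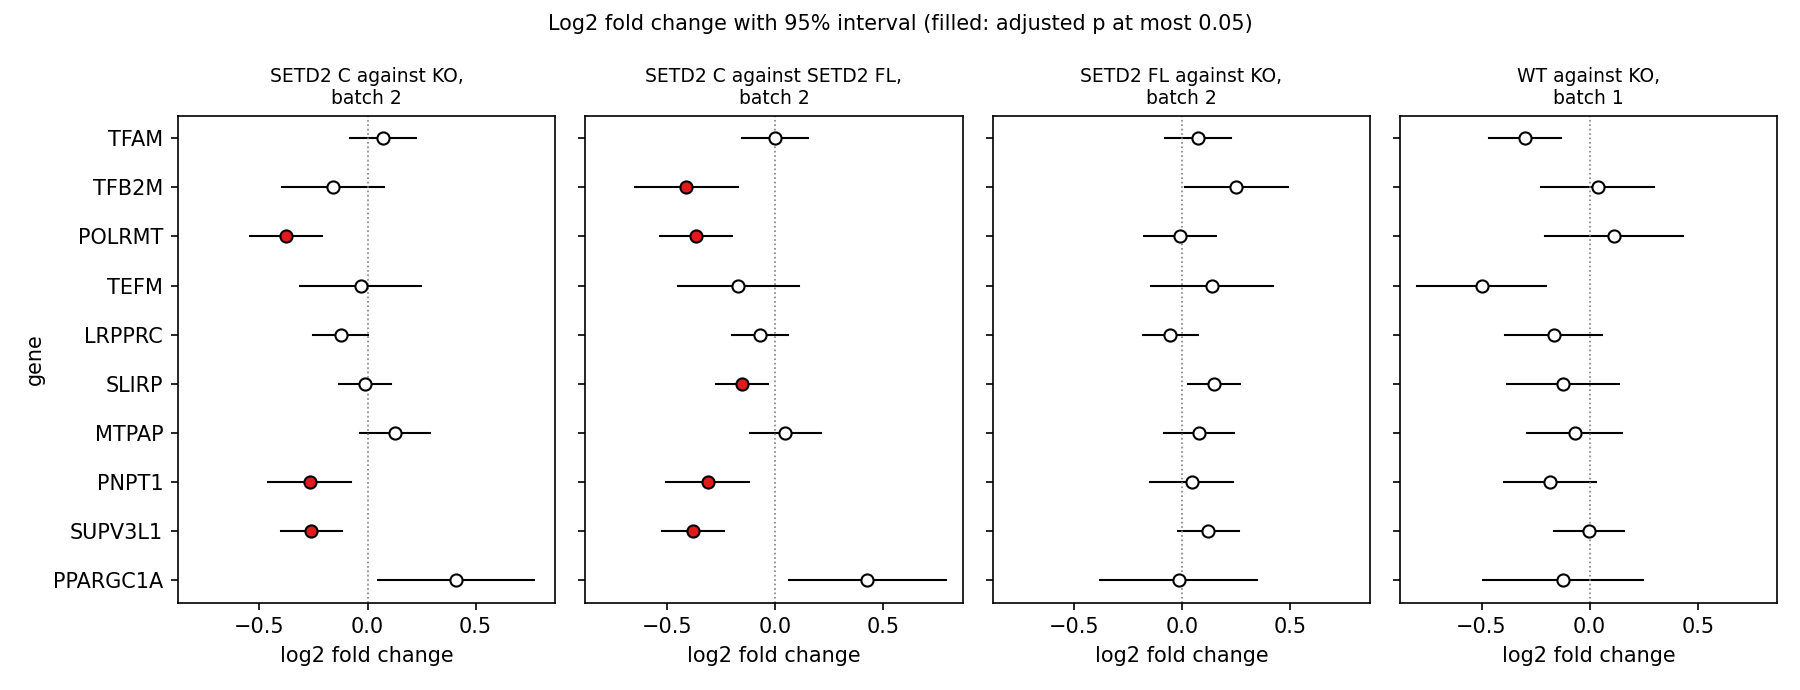
Log2 fold change (horizontal axis) of each gene in 4 comparisons, with its 95% interval from limma; filled points passed at an adjusted p of at most 0.05. With scaling, POLRMT, PNPT1 and SUPV3L1 are lower with SETD2 C in both comparisons, while without scaling PNPT1 passes in neither and SUPV3L1 only against SETD2 FL.

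SLIRP and LRPPRC bind the mRNAs as partners. SLIRP (ENSG00000119705, chromosome 14 from 77708071 to 77761104, plus strand, 4 exons) had a TPM of 418 and 388 in KO, 444 and 459 with SETD2 FL, while SETD2 C gave 450 and 437. In TPM, SETD2 C lay among the SETD2 FL values or just below them, and after scaling it was 423 and 409 against 464 and 462. The log2 fold change of SETD2 C against SETD2 FL was -0.15 (SE 0.05, adjusted p = 0.0484, limma, Benjamini-Hochberg). Leaving out KO replicate 4 kept that call (adjusted p = 0.0499, limma, Benjamini-Hochberg). Leaving out any other library ended it, with a limma adjusted p (Benjamini-Hochberg) of 0.0527 without KO replicate 2, 0.14 and 0.121 without SETD2 FL replicates 3 and 4, and 0.0879 and 0.204 without SETD2 C replicates 1 and 2. It passed in 6 of 11 other settings. It was lost without scaling (adjusted p = 0.757, limma, Benjamini-Hochberg), under quantile normalization (0.134), with eBayes without trend (0.137), with no filter on low TPM (0.0846) and over all gene types (0.0577). SNW1, on the opposite strand, overlaps SLIRP and lay between 79.9 and 107 TPM, and its part in the SLIRP value was not tested.

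LRPPRC (ENSG00000138095, chromosome 2 from 43886224 to 43996226, minus strand, 38 exons) had a TPM of 64.1 and 66.7 in KO, 61.3 and 66.4 with SETD2 FL, while SETD2 C gave 65.5 and 67.4. The 3 groups overlapped in TPM. Its log2 fold change with SETD2 C was -0.12 against KO (95% interval -0.25 to 0.00, adjusted p = 0.117, limma, Benjamini-Hochberg) and -0.07 against SETD2 FL (SE 0.06, adjusted p = 0.357), and neither passed. Its difference from SLIRP was not tested. Without scaling it was 0.02 against KO, where the median of all genes was 0.18. Relative to that median it was -0.17 with scaling and -0.07 under quantile normalization. There were 4.11 to 4.72 SLIRP transcripts per LRPPRC transcript in batch 1 and 5.82 to 7.25 in batch 2, on the TPM scale. MTPAP (ENSG00000107951, chromosome 10 from 30309801 to 30374448, minus strand, 9 exons) had a TPM of 13.1 and 12.3 in KO, 13.3 and 13.9 with SETD2 FL, while SETD2 C gave 15.2 and 15.6. The SETD2 C libraries were the highest in TPM. With scaling MTPAP did not pass (log2 fold change 0.13 against KO, adjusted p = 0.195, limma, Benjamini-Hochberg). Without scaling it did, at 0.27 with a limma adjusted p of 0.0248 (Benjamini-Hochberg).

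PPARGC1A (ENSG00000109819, chromosome 4 from 23755041 to 23904089, minus strand, 13 exons) was the lowest of the 10, at 0.91 and 0.78 TPM in KO, 0.80 and 0.88 with SETD2 FL, while SETD2 C gave 1.51 and 1.33. Both SETD2 C libraries lay above the other 4, and KO and SETD2 FL overlapped. With SETD2 C its log2 fold change was 0.41 against KO (SE 0.16, adjusted p = 0.0734, limma, Benjamini-Hochberg) and 0.43 against SETD2 FL (SE 0.16, adjusted p = 0.0624), and neither passed. Both passed without scaling (adjusted p = 0.0339 and 0.0324, limma, Benjamini-Hochberg) and with eBayes without trend (adjusted p = 0.0215 and 0.018). Under quantile normalization its log2 fold changes were 0.07 against KO and 0.12 against SETD2 FL.

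After scaling, the SETD2 C and KO groups did not overlap for 5 of the 10 genes with SETD2 C lower (TFB2M, POLRMT, LRPPRC, PNPT1 and SUPV3L1) and for 2 with it higher (MTPAP and PPARGC1A). The same held for 30.8% and 40.5% of all genes tested.

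Between the constructs, 5 of the 10 genes (POLRMT, SUPV3L1, TFB2M, PNPT1 and SLIRP) were lower with SETD2 C than with SETD2 FL and 0 were higher. Among all genes tested, 16.8% were lower and 21.4% higher, and 3.79% passed with a 2-fold change, which 0 of the 10 reached (limma, with 6 of the 10 and 48.8% of all genes at an unadjusted p under 0.05). Without scaling 2 were lower (POLRMT and SUPV3L1) and 1 was higher (PPARGC1A), and under quantile normalization 4 were lower (SLIRP lost) and 0 higher. All genes gave 1508 lower and 5189 higher without scaling, and 3066 and 2699 under quantile normalization. The median of all genes without scaling was 0.16, beside 0.04 with scaling. After scaling, groups did not overlap for 6 genes that were lower and 2 that were higher, against 32.0% and 40.3% of all genes. The comparisons with SETD2 C share its libraries, and those with KO share the KO libraries, so they are not independent of each other.

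**Figure D3:**
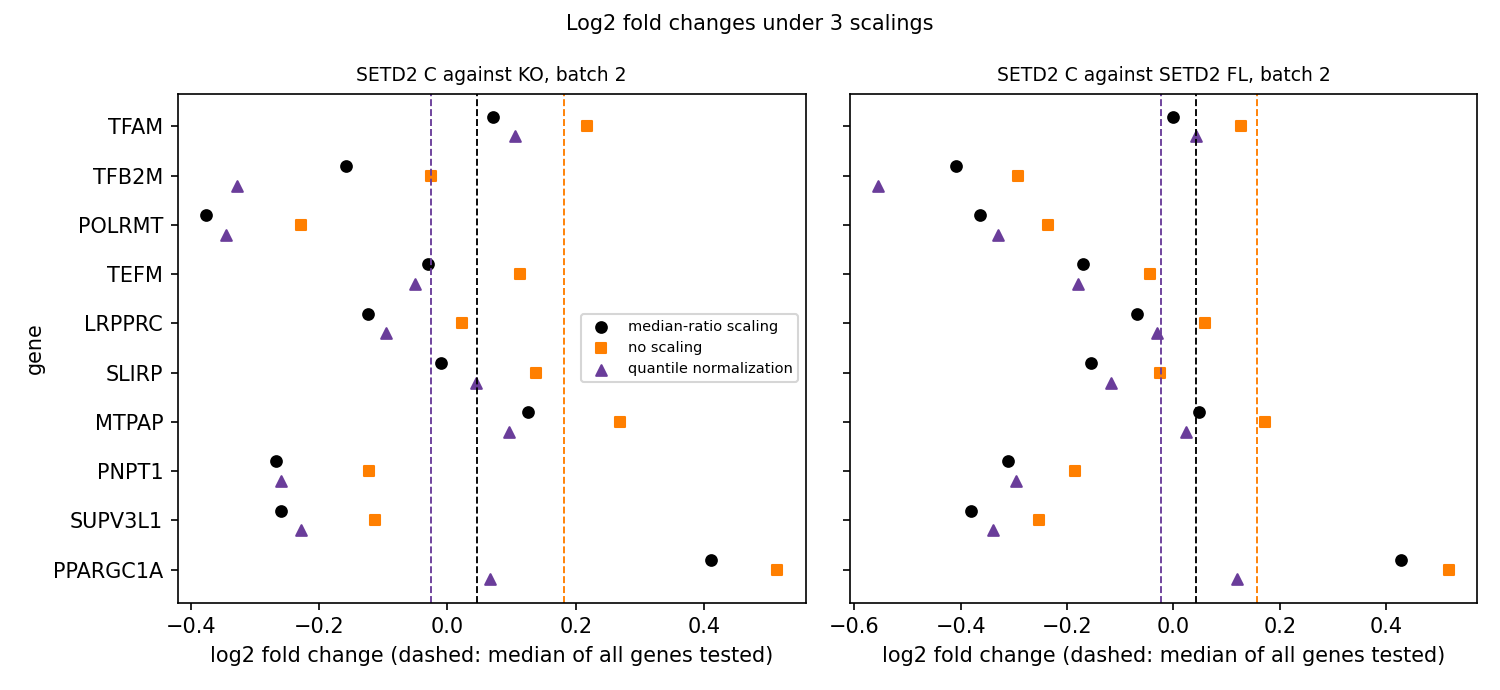
Log2 fold change (horizontal axis) of each gene with SETD2 C, against KO and against SETD2 FL, under median-ratio scaling, no scaling and quantile normalization; dashed lines mark the median of all genes tested under each. POLRMT lies left of that median under all 3, while LRPPRC, SLIRP and TEFM change sign against KO without scaling.

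With SETD2 FL relative to the libraries labelled KO, 0 of the 10 genes passed (limma, Benjamini-Hochberg), and 2, TFB2M and SLIRP, had an unadjusted p under 0.05, beside 15.9% of all genes. Few genes passed in this comparison at all, 0.176% of those tested being higher, 0.0314% lower and 0.0816% passing with a 2-fold change. The TFB2M log2 fold change was 0.25 (95% interval 0.01 to 0.49, adjusted p = 0.291, limma, Benjamini-Hochberg). That of SLIRP was 0.14 (95% interval 0.02 to 0.26, adjusted p = 0.252, limma, Benjamini-Hochberg). POLRMT differed by -0.01 with an interval from -0.18 to 0.15. After scaling, groups did not overlap for 6 of the 10 genes that were higher with SETD2 FL and for 0 that were lower, against 24.8% and 23.4% of all genes. The median of the 10 was 0.07, beside 0.01 for all genes.

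In batch 1, 0 of the 10 genes passed between WT and the libraries labelled KO (limma, Benjamini-Hochberg), where 3.17% of 14741 genes were higher in WT, 1.32% lower and 1.36% passed with a 2-fold change. TFAM and TEFM were the 2 with an unadjusted p under 0.05, beside 24.9% of all genes. TFAM was at 50.9 and 62.4 TPM in WT and at 75.0 and 76.9 in KO, and the groups did not overlap. Its log2 fold change was -0.30 (95% interval -0.46 to -0.13, adjusted p = 0.0653, limma, Benjamini-Hochberg). TEFM was at 8.42 and 11.4 TPM in WT and at 14.0 and 16.9 in KO, also without overlap. Its log2 fold change was -0.50 (95% interval -0.80 to -0.20, adjusted p = 0.0744, limma, Benjamini-Hochberg). TEFM passed without scaling (adjusted p = 0.0191, limma, Benjamini-Hochberg) and without WT replicate 2 (adjusted p = 0.0456). POLRMT, at 58.6 and 53.1 TPM in WT and 60.7 and 52.7 in KO, overlapped. Together with PNPT1, 3 genes had groups apart after scaling with WT lower and 0 with WT higher, against 27.4% and 29.4% of all genes. The median of the 10 was -0.12, beside 0.01 for all genes, and the median of all genes moved to -0.11 without scaling.

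Promoters are shown for the 3 genes that were lower with SETD2 C in both comparisons and for TFAM, whose transcript was not. Each is the RefSeq window (GRCh38.p14) from 250 bases before to 50 bases after the annotated start, on the strand of the gene, with motif matches in capitals. POLRMT is chr19:633488-633787 (minus), SUPV3L1 chr10:69179984-69180283 (plus), PNPT1 chr2:55693795-55694094 (minus) and TFAM chr10:58385160-58385459 (plus).
POLRMT: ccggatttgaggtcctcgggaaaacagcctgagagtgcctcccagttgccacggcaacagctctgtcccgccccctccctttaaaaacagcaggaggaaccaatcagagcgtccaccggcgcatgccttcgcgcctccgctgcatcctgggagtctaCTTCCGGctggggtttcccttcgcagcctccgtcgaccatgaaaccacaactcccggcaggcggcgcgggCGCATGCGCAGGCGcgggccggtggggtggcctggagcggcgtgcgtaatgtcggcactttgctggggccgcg
SUPV3L1: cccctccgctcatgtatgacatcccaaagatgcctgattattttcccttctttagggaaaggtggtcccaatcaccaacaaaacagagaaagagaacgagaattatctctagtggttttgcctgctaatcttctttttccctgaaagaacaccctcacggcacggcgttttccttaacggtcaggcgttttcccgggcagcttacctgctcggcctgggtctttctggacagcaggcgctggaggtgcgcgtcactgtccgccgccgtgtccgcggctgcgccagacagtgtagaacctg
PNPT1: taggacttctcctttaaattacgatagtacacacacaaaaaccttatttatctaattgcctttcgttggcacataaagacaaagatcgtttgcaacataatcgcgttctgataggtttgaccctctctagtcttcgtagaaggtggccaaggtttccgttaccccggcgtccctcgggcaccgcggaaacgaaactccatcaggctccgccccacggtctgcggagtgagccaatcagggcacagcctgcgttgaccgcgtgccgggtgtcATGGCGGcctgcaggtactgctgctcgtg
TFAM: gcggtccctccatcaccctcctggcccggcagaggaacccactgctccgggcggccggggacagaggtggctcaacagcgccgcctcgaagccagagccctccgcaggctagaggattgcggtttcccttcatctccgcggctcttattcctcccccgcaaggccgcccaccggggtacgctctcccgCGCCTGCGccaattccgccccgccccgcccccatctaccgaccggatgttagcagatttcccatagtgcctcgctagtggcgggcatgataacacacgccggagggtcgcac

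On either strand, 5 motifs were searched: the NRF1 core CGCANGCG, the ETS motif CCGGAAG, YY1 ATGGCGG, the cyclic AMP response element TGACGTCA and the E-box CACGTG. All 10 genes had a window, 12 in all since SLIRP and PPARGC1A have 2 each. The 2 SLIRP windows overlap and share their sites, so each SLIRP site counts in 2 windows. The MTPAP window (chr10:30349229-30349528) and 1 of PPARGC1A (chr4:23881052-23881351) lie inside the gene bounds given above, away from their ends, and the other of PPARGC1A (chr4:24472856-24473155) lies outside them. The NRF1 core was found in 4 of the 12 windows (TFAM, TFB2M, POLRMT and MTPAP) and in 10.0% of 35116 windows of all genes. POLRMT held 2 matches that overlap each other, CGCATGCG and CGCAGGCG. CCGGAAG was found in 4 windows of POLRMT, TEFM and SLIRP and in 10.3% of all windows. ATGGCGG was found in 4 windows of SLIRP, MTPAP and PNPT1 and in 5.55% of all. Every one of these matches lies after the annotated start, at base 10 or 42 in SLIRP, 4 in MTPAP and 22 in PNPT1. Binding of YY1 there was not tested. TGACGTCA was in 0 of the 12 and in 1.85% of all, and CACGTG was in the PPARGC1A window outside those bounds and in 7.26% of all. SUPV3L1 and LRPPRC held none of the 5, so the 3 genes that were lower with SETD2 C had no motif of these in common.

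Transcripts of the mitochondrial genome itself were measured in the same libraries. The mRNAs of the 13 protein-coding genes of the mitochondrial genome, each counted by gene, made up 6.73% and 5.88% of TPM in KO. They made up 10.4% and 7.43% with SETD2 FL, while SETD2 C gave 2.44% and 2.78%. SETD2 C was the lowest group and did not overlap the others. Of the 13, 11 were lower with SETD2 C than in KO and 13 lower than with SETD2 FL, with 0 higher (limma, Benjamini-Hochberg), where 15.1% and 16.8% of all genes were lower. Their median log2 fold changes were -1.37 and -2.12. Without scaling 9 and 13 were lower, and under quantile normalization 8 and 13. MT-ATP6 was at 8348 and 6808 TPM in KO and at 1671 and 1875 with SETD2 C. MT-ATP8 was at 11761 and 10142 TPM in KO and at 2290 and 2542 with SETD2 C. MT-ATP8 and MT-ATP6 fell the most of the 13 against KO, by log2 fold changes of -2.33 and -2.24. The smallest changes were those of MT-ND5 (-0.40), MT-CO1 (-0.47) and MT-ND1 (-0.50). Of these, MT-ND5 and MT-ND1 did not pass (limma, Benjamini-Hochberg). The mitochondrial rRNAs together were at 3149 and 3462 TPM in KO, 5621 and 3646 with SETD2 FL, while SETD2 C gave 4951 and 5889. Their SETD2 C values thus lay above KO, opposite to the mRNAs, and overlapped SETD2 FL. In batch 1 the mRNA share was 22.6% and 13.8% in WT and 11.8% and 12.2% in KO. With scaling 0 of the 13 passed in WT against KO (limma, Benjamini-Hochberg; 5 at an unadjusted p under 0.05, beside 24.9% of all genes), while 13 had a positive log2 fold change (median 0.74). Without scaling 13 were higher in WT, and under quantile normalization 1. With SETD2 FL against KO 0 of the 13 passed and 11 had an unadjusted p under 0.05, beside 15.9% of all genes. All 13 had a positive log2 fold change there (median 0.45), and under quantile normalization 1 passed as higher. A relation between these levels and those of the 10 genes was not tested.

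**Figure D4:**
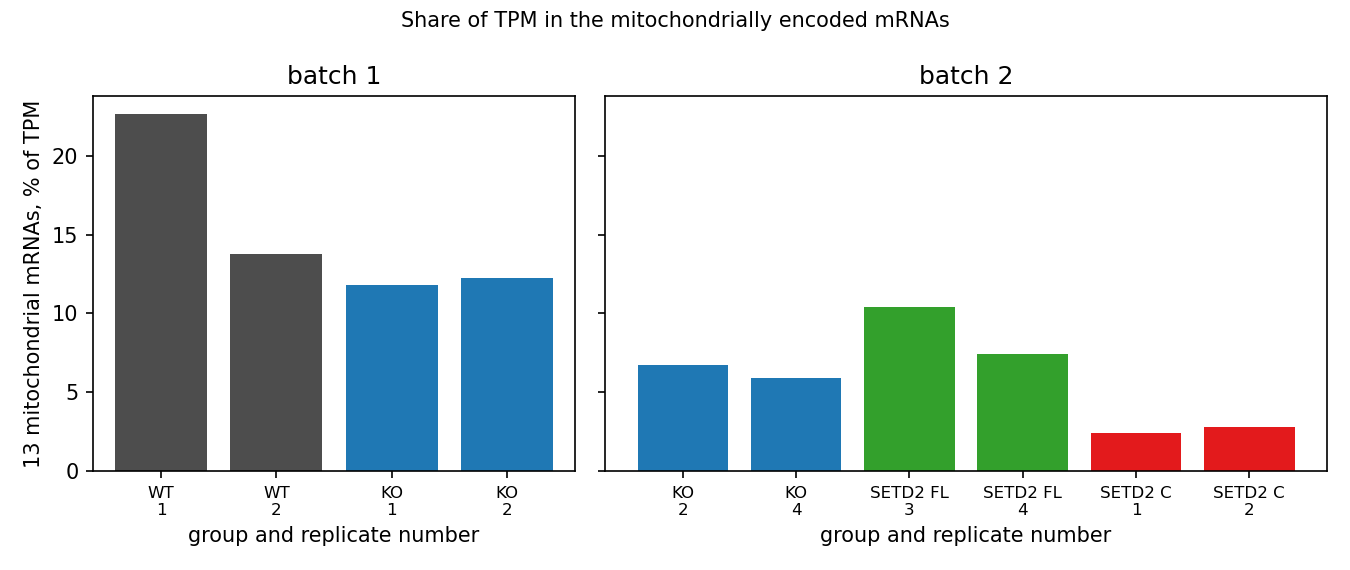
Share of TPM (percent) in the mRNAs of the 13 protein-coding mitochondrial genes, with batch 1 on the left and batch 2 on the right. Each bar is 1 library. The SETD2 C libraries, at 2.44% and 2.78%, are the lowest of batch 2.

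Other genes of mitochondrial RNA metabolism were counted by list. Of 22 tested genes for mitochondrial RNA processing and modification, 12 were lower and 1 was higher with SETD2 C than in KO, beside 15.1% and 21.1% of all genes. Without scaling 9 were lower and 3 higher, beside 1115 and 5507 of all 15929 genes. PUS1, a pseudouridine synthase, had a TPM of 34.2 and 33.3 in KO and 23.6 and 23.1 with SETD2 C (log2 fold change -0.67, adjusted p = 0.000247, limma, Benjamini-Hochberg). TRMT10C, a subunit of mitochondrial RNase P, was at 43.7 and 46.9 TPM in KO and at 36.4 and 35.9 with SETD2 C (log2 fold change -0.47, adjusted p = 0.0013, limma, Benjamini-Hochberg). TRIT1, which modifies tRNA, was higher, at 32.3 and 32.0 TPM in KO and 45.8 and 47.8 with SETD2 C (log2 fold change 0.39, adjusted p = 0.00201, limma, Benjamini-Hochberg). The median of this list was -0.28, beside 0.05 for all genes. Against SETD2 FL, 16 were lower and 1 higher, beside 16.8% and 21.4% of all genes, and without scaling 9 and 2, beside 1508 and 5189 of all genes.

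Of 20 tested genes of the mitochondrial RNA granule, stability and decay, 6 were lower (30%) and 1 higher with SETD2 C than in KO, beside 15.1% and 21.1% of all genes. Without scaling 3 were lower and 5 higher, and under quantile normalization 4 and 0. The median of this list was -0.04. The helicase DDX28 was at 9.43 and 9.74 TPM in KO and at 5.98 and 5.61 with SETD2 C (log2 fold change -0.82, adjusted p = 0.000586, limma, Benjamini-Hochberg). FASTKD2, an RNA-binding protein of the granule, fell by 0.42 on the log2 scale (adjusted p = 0.0054, limma, Benjamini-Hochberg). ANGEL2 was higher by 0.28 (adjusted p = 0.0372, limma, Benjamini-Hochberg). Against SETD2 FL, 7 were lower and 2 higher (35% and 10%), beside 16.8% and 21.4% of all genes, and without scaling 5 and 3.

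Among 7 tested partners of the polymerase and termination factors, MRPL12 alone passed, at 284 and 288 TPM in KO and 226 and 219 with SETD2 C (log2 fold change -0.51, adjusted p = 0.000367, limma, Benjamini-Hochberg). That 1 of 7 (14.3%) stands beside 15.1% of all genes lower, and without scaling 1 was lower and 2 were higher. Of 18 genes of mitochondrial DNA replication and the nucleoid, 6 were lower and 3 higher (33.3% and 16.7%), beside 15.1% and 21.1% of all genes. Without scaling 4 were lower and 6 higher, and the list median was -0.05 with scaling. ATAD3A fell by 0.52 and TOP1MT, a mitochondrial topoisomerase, by 0.45 on the log2 scale (adjusted p = 0.00158 and 0.00163, limma, Benjamini-Hochberg). The thymidine kinase TK2 was higher by 0.57 and the exonuclease MGME1 by 0.34 (adjusted p = 0.00303 and 0.00416, limma, Benjamini-Hochberg). Against SETD2 FL, 1 of the 7 polymerase partners was lower, and 6 of the 18 replication genes were lower and 3 higher, beside 16.8% and 21.4% of all genes. Without scaling 1 partner was lower and 1 higher, and 4 replication genes were lower and 3 higher.

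Of 19 tested nuclear regulators of mitochondrial biogenesis, 4 were lower and 2 higher with SETD2 C than in KO (21.1% and 10.5%), beside 15.1% and 21.1% of all genes. Without scaling 4 were lower and 6 higher, and the list median was -0.02 with scaling. MYC was at 290 and 292 TPM in KO and at 196 and 186 with SETD2 C (log2 fold change -0.76, adjusted p = 0.000202, limma, Benjamini-Hochberg). PPRC1, a coactivator related to PPARGC1A, fell by 0.58 on the log2 scale (adjusted p = 0.000885, limma, Benjamini-Hochberg). PRKAA1, a catalytic subunit of the AMP-activated kinase, was higher by 0.50 (adjusted p = 0.00243, limma, Benjamini-Hochberg) and YY1 by 0.26 (adjusted p = 0.00792). NRF1 did not pass (log2 fold change 0.07, adjusted p = 0.541, limma, Benjamini-Hochberg). Against SETD2 FL, 5 were lower (26.3%) and 1 higher (5.26%), beside 16.8% and 21.4% of all genes, and without scaling 4 were lower and 7 higher. With SETD2 FL against KO, 0 genes of any of these lists passed (limma, Benjamini-Hochberg), with an unadjusted p under 0.05 for 5 of 22 RNA processing genes, 3 of 20 in the granule list, 2 of 19 regulators, 1 of 18 replication genes and 0 of 7 polymerase partners, beside 15.9% of all genes. In batch 1, MRM3 and TACO1 were lower and FASTK higher in WT (adjusted p = 0.0333, 0.0327 and 0.012, limma, Benjamini-Hochberg), and 0 others of these lists passed, beside 3.17% of all genes higher and 1.32% lower. Without scaling 1 regulator was also lower in WT.

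**Figure D5:**
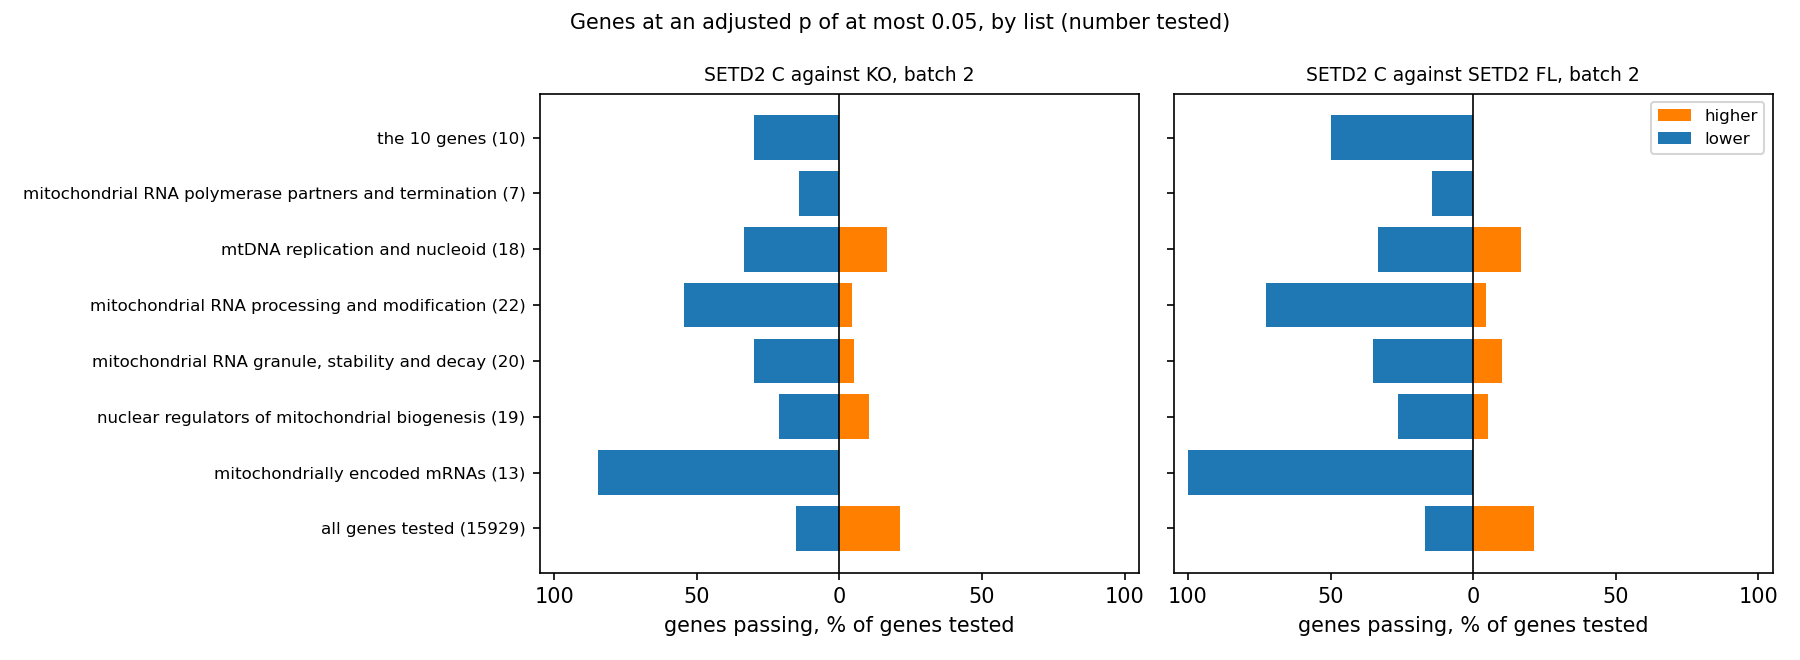
Percent of tested genes of each list that passed at an adjusted p of at most 0.05 (limma), lower to the left and higher to the right, for SETD2 C against KO and against SETD2 FL, with the number tested in parentheses and all 15929 genes in the last bar. With scaling, 54.5% of the RNA processing and modification genes are lower against KO; without scaling the 10 genes turn from 3 lower and 0 higher to 1 lower and 3 higher against KO.

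The genes whose pattern over the 6 libraries of batch 2 was nearest to that of TFAM were PIK3C2A, IKZF5 and TRMT13, with root mean square distances of centred log2 values of 0.020, 0.022 and 0.023. With scaling and 0.5 added to TPM, PPARGC1A had the largest absolute log2 fold change of the 10 with SETD2 C against KO, but did not pass. POLRMT exceeded it with scaling and 1 added (-0.373 beside 0.312) and under quantile normalization (-0.345 beside 0.07). Without scaling PPARGC1A stood at 0.514 and POLRMT at -0.228. Across the alternatives with a value, PPARGC1A ranged from 0.067 to 0.551. Nearest to PPARGC1A were BTBD8, AC144652.1 and MRTFB, with distances of 0.024, 0.026 and 0.029. BTBD8 was at 3.57 and 3.35 TPM in KO, 3.39 and 3.67 with SETD2 FL, while SETD2 C gave 5.49 and 5.12.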

How the data were processed

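The authors aligned the RNA-seq reads with STAR 2.6.1c to hg38 with Ensembl 96 gene models and deposited TPM per gene from RSEM 1.3.0, in separate tables of 4 and 6 libraries. Because the values are TPM, limma on a log scale was used, and the count-based test of the study was not used here. H3K36me3 ChIP-seq data were not analysed here. Groups and replicate numbers came from the sample labels.

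For scaling, a factor per library was taken as the median of its ratios to per-gene geometric means, using protein-coding genes and lncRNAs (GENCODE 44, GRCh38) whose TPM reached 1 throughout the table. Genes of both types entered the test if TPM reached 0.5 in 2 or more libraries. Log2 values of scaled TPM, with 0.5 added, were fitted in R 4.3.3 by limma 3.58.1 using lmFit, contrasts.fit and eBayes with trend, and p-values were adjusted by Benjamini-Hochberg. The 6 libraries of batch 2 shared 1 fit. The procedure was also run on simulated data, drawn with independent normal noise from its own fitted spread. That run cannot test the noise model or the scaling, so it does not bear on the calls given here. Gene types were matched for 58472 genes by identifier and 18 by symbol, and 394 were unmatched. A symbol was not used where the annotated gene was itself listed. That condition was set after a first fit had been seen.

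The members and gene lists were chosen with earlier results of these data known. Named were all members, SETD2 and the 2 genes of each list with the smallest adjusted p in each direction with SETD2 C against KO. Also named were the 3 nearest in pattern to TFAM and to PPARGC1A. PPARGC1A had the largest absolute log2 fold change of the 10 in that comparison with scaling and 0.5 added to TPM. NRF1, MT-ND1, MT-ND5, MT-CO1, MRM3, TACO1 and FASTK were named after their values were seen. Alternatives were other pseudocounts, filters and scalings, all gene types, eBayes without trend, fits of only the groups compared, a replicate block in batch 1, TPM rescaled without mitochondrial genes and SETD2, a 2-fold threshold, and each library left out.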

Additional observations from a re-analysis of the deposited data

How the results depend on the processing

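Judged by adjusted p alone, and across the alternatives other than left-out libraries and the 2-fold threshold, 401 values of single genes kept their direction and their side of the threshold, 14 no longer passed, 10 came to pass and 12 changed sign. POLRMT with SETD2 C passed in all 11 of these that apply to batch 2, in both comparisons, with a limma adjusted p (Benjamini-Hochberg) of at most 0.0325 against KO and 0.0305 against SETD2 FL. Matching symbols less strictly, which gave 31 matches in place of 18, was added after seeing the data and changed no call of the 10 genes.

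Without scaling, 4 of the 10 genes passed with SETD2 C against KO (3 higher, 1 lower) in place of 3, 3 passed against SETD2 FL (1 higher, 2 lower) in place of 5, and 1 passed in WT against KO in place of 0. Signs that changed without scaling gave log2 fold changes against KO with SETD2 C of 0.113 for TEFM, 0.023 for LRPPRC and 0.138 for SLIRP, of 0.127 for TFAM and 0.059 for LRPPRC against SETD2 FL, of 0.007 for POLRMT with SETD2 FL against KO, and of -0.081 for TFB2M and -0.018 for POLRMT in WT against KO. Under quantile normalization the values that changed sign were 0.044 for SLIRP with SETD2 C against KO, 0.043 for TFAM against SETD2 FL, and -0.03 for TFB2M and 0.028 for SUPV3L1 in WT against KO. All genes together went from 3357 higher and 2404 lower with SETD2 C against KO to 5507 and 1115 without scaling and to 2456 and 2786 under quantile normalization. They went from 3408 and 2675 against SETD2 FL to 5189 and 1508 without scaling, and from 467 and 194 in WT against KO to 359 and 410. The cause was not tested.

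With no filter on low TPM, where 25809 genes were tested, 3 genes passed with SETD2 C against SETD2 FL. At a 2-fold threshold 0 passed in either comparison with SETD2 C, in place of 3 against KO and 5 against SETD2 FL. With the replicate number as a block in batch 1, 2 genes passed in WT against KO, TFAM and TEFM, and among all genes 825 were higher and 439 lower. Same-numbered WT and KO libraries had a correlation of deviations of 0.147 across 14741 genes, but 2 pairs sharing only a number do not establish pairing. No paired analysis was possible in batch 2 because its groups share fewer than 2 numbers.

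Leaving out each library, where a lone library is assumed to vary like the other groups, gave 1 to 3 genes with SETD2 C against KO, 2 to 5 against SETD2 FL, 0 to 0 with SETD2 FL against KO and 0 to 1 in WT against KO. Log2 fold changes whose sign depended on a library ranged, with SETD2 C against KO, from -0.009 to 0.151 for TFAM, -0.212 to 0.15 for TEFM and -0.058 to 0.036 for SLIRP. Against SETD2 FL they ranged from -0.081 to 0.079 for TFAM and -0.351 to 0.012 for TEFM. With SETD2 FL against KO they ranged from -0.085 to 0.059 for POLRMT, -0.055 to 0.141 for PNPT1 and -0.084 to 0.049 for PPARGC1A. In WT against KO they ranged from -0.028 to 0.104 for TFB2M, -0.076 to 0.301 for POLRMT, -0.266 to 0.025 for SLIRP and -0.024 to 0.015 for SUPV3L1.

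TPM keeps no depth, so counting error is unknown, and each group holds only 2 libraries. PPARGC1A has no value in batch 2 where a TPM of at least 1 was required of all libraries, since its KO and SETD2 FL values lie below that minimum.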
